A study of Mus musculus with 6 samples.

Results

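The genes described here are 41 genes of DNA replication and deoxynucleotide supply. They were chosen by name, with earlier results of these data known, out of the 55421 genes in the count table, and all 41 were among the 18140 genes with enough counts to be tested. RNA-seq was performed on day 4 of differentiation in C2C12 cells, a mouse myoblast line, that stably carried the plasmid pCDNA3-GFP-(CUG)200 as a model of myotonic dystrophy type 1 (DM1). The control group (3 libraries) carried the empty vector pLL4.0, and the miR-322/-503 group (3 libraries) carried the same vector with the miR-322/-503 cluster. Both groups shared the CUG repeat of 200 units, and each group was 1 stably transfected line, so an effect of the microRNAs and any other difference between the lines cannot be told apart. The labels do not say whether the libraries of a group came from separate cultures. The p-values set the difference between the groups against the spread between these libraries, and not against the spread between separately made lines.

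Replication begins when the origin recognition complex (ORC), with CDC6 and CDT1, loads the MCM helicase onto DNA in G1 phase. CDC45 and the GINS complex activate the helicase, primase starts each new strand, the clamp PCNA tethers the polymerases, and RPA covers single strands. Ribonucleotide reductase and thymidylate enzymes supply the building blocks. Myoblasts leave the cell cycle as they differentiate, and most of these genes are known targets of E2F transcription factors, which are repressed in cells that stop dividing.

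The overexpressed microRNAs were looked at first, because their seeds (bases 2 to 8, in capitals) define what a matching 3'UTR would contain. The mature 5p sequence of each is given from RefSeq (GRCm38.p6), and the 3p sequences were not used in the 3'UTR search. Both 5p sequences lie on the minus strand of chromosome X, with miR-322-5p at chrX:53054306-53054327 and miR-503-5p at chrX:53054027-53054049.
mmu-miR-322-5p: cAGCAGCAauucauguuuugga
mmu-miR-503-5p: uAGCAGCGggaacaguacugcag
The seeds share their first 6 bases and differ in the last. The microRNA genes were barely counted in these libraries. For Mir322, control libraries held 1, 7 and 2 counts and miR-322/-503 libraries held 17, 0 and 3. For Mir503, they held 1, 1 and 2 and then 6, 4 and 5, too few to check the overexpression here.

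The complement of either seed was found in the longest annotated 3'UTR of 6 of the 41 genes (14.6%), compared with 30.01% of the 13487 tested genes that had an annotated 3'UTR. The replication genes had shorter 3'UTRs, with a median of 526 bases against 1343. Of the 11 replication genes that passed the test as lower, 0 contained either match. Matches in Cdc6, at positions 649 and 3101 of a 3'UTR of 3402 bases, and in Rfc1, which passed the test as higher, are shown with the match in capitals.
Cdc6, position 649, miR-503-5p: gggaacatcctCGCTGCTggtctgccctg
Cdc6, position 3101, miR-322-5p: aggcctttcctTGCTGCTttttctcaccg
Rfc1, position 713, miR-322-5p: cctgaccacatTGCTGCTataggtagtct
The other matches were in Cdt1 (miR-503-5p) and in Gins2, Pold3 and Rpa1 (miR-322-5p), and the 4 genes had log2 fold changes between -0.13 and 0.15 that did not pass the test. A match is a description of the letters and not evidence of binding.

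Most of the 41 genes lay slightly below the control in the miR-322/-503 libraries, and the falls that passed the test included both listed subunits of the origin recognition complex (Orc1 and Orc6), both primase subunits and 2 nucleotide supply genes. Values are CPM (estimated counts scaled by edgeR to TMM-normalized library size), and genes passed at 0.05 after Benjamini-Hochberg adjustment of edgeR's quasi-likelihood p-values over all tested genes. SE stands for standard error. Of the 41 genes, 32 (78.0%) had a log2 fold change below 0, as did 50.7% of all tested genes. The median log2 fold change was -0.13 (quartiles -0.29 and -0.04), against -0.01 (quartiles -0.30 and 0.28) over all tested genes. Every gene of the list was counted in all 6 libraries.

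In total, 13 of the 41 genes (31.7%) passed the test, while 28.8% of all tested genes did, so the share that changed was close to the background. The direction was uneven. As lower, 11 genes (26.8%) passed, against a background of 15.5%. With 1 library left out at a time, 5 to 8 genes (12.2% to 19.5%) passed as lower, against 11.8% to 13.3% of all tested genes. Without chromosomes 4, 8 and 9, 6 of 33 genes (18.2%) passed as lower, against 13.1% of the tested genes that remained. Chromosomes 4 and 9 and a block of chromosome 8 were shifted in earlier results of these data. Their median log2 fold changes were -0.19, -0.27 and, for all of chromosome 8, -0.03. Chromosome 5, with a median of 0.17, was kept. As higher, 2 genes (4.88%) passed, against 13.2%. The 11 lower genes were Mcm4, Mcm5, Orc1, Orc6, Gins3, Prim1, Prim2, Pole2, Rpa2, Rrm1 and Tk1, and the 2 higher genes were the clamp loader subunits Rfc1 and Rfc3. Only Orc6 (2.44% of the list, background 5.29%) was also past a log2 fold change of -1. The values of the groups did not overlap for 23 genes (56.1%, background 45.1%), and for 19 of these (46.3%, background 23.5%) the miR-322/-503 libraries were the lower ones. In these bulk samples, fewer cells of a type and less RNA per cell cannot be told apart.

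The 13 calls were not equally firm. Mcm5, Orc1, Orc6, Rfc3, Rrm1 and Tk1 passed in all 16 fits tried, including each fit without 1 library. The other 7 lost the call when single libraries were left out, with edgeR quasi-likelihood adjusted p-values of up to 0.107 for Mcm4 (without miR-322/-503 replicate 1), 0.118 for Gins3 (without miR-322/-503 replicate 1), 0.136 for Rfc1 (without control replicate 2), 0.143 for Prim1 (without miR-322/-503 replicate 3), 0.0867 for Prim2 (without miR-322/-503 replicate 3), 0.0672 for Pole2 (without miR-322/-503 replicate 3) and 0.0921 for Rpa2 (without miR-322/-503 replicate 3). The direction of these 7 was the same in every fit. Rpa2 missed the threshold in such fits only. Rfc1 also missed it with DESeq2 (adjusted p = 0.0514), with no filter on low counts (edgeR adjusted p = 0.0687) and with limma on log2(TPM + 1) (adjusted p = 0.312). Prim1 missed it with RLE size factors and upper-quartile factors (edgeR adjusted p = 0.0531 and 0.0577), with no filter (0.0673) and with limma (0.0808). Mcm4 missed it with no filter (edgeR adjusted p = 0.0520) and with limma (0.0566). Gins3 missed it with upper-quartile factors (edgeR adjusted p = 0.0509), no filter (0.0636) and replicate number as a block (0.0521). Prim2 and Pole2 missed it with limma on log2(TPM + 1) (adjusted p = 0.0502 and 0.0518).

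**Figure D1:**
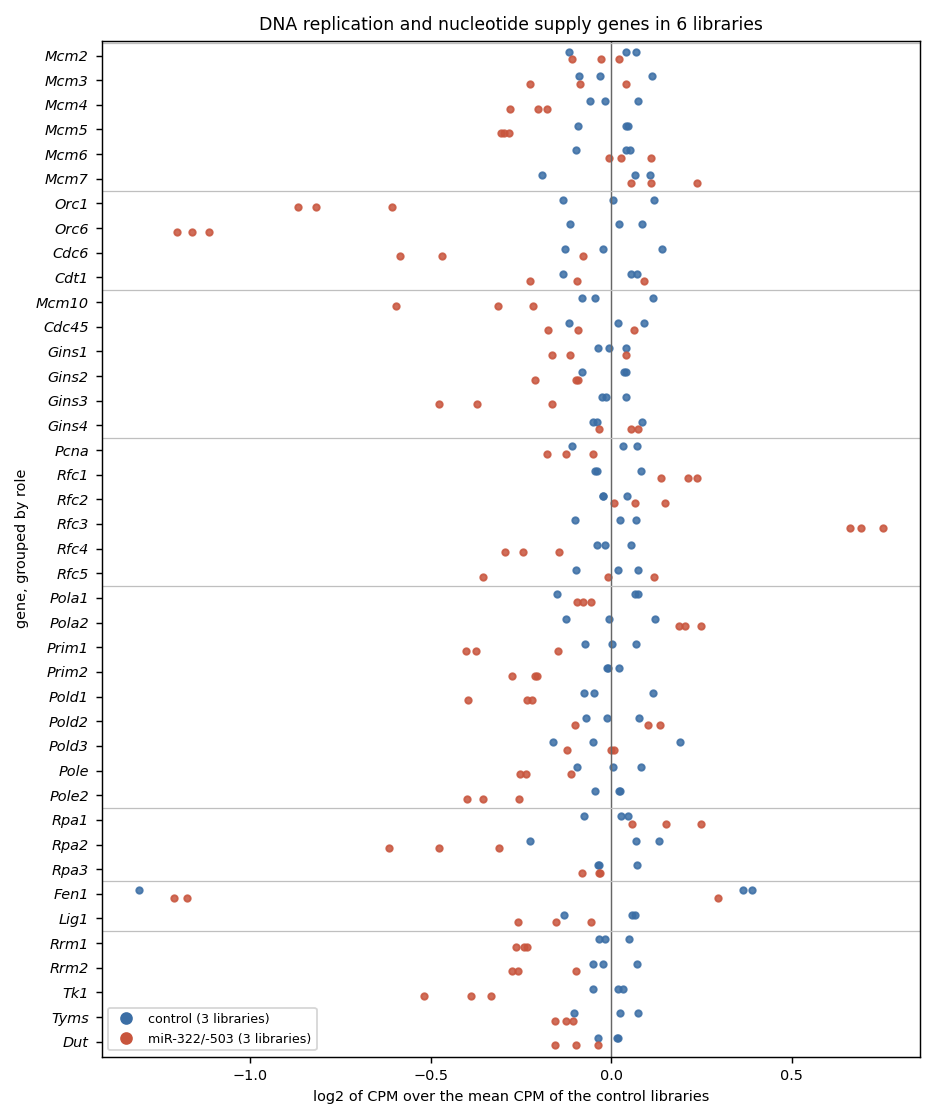
Each point is 1 library, plotted as the log2 of its CPM over the mean CPM of the control libraries (x axis) for each of the 41 genes (y axis, grouped by role in the order used in the text). Orc6 and Orc1 stand apart on the left and Rfc3 on the right, while the points of Fen1 split within each group.

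Libraries of the same group were close. The coefficient of variation over 3 libraries had a median of 6.003% in the control and 5.36% in the miR-322/-503 group, and its maximum apart from Fen1 was 12.7% and 19.1%. Control replicate 3 was the lowest control library for 25 of the 41 genes and the highest for 1. Summed over the 41 genes, the control replicates reached 1979, 1957 and 1837 CPM and the miR-322/-503 replicates 1776, 1786 and 1719 CPM, so the groups did not overlap, and the gap between control replicate 3 and miR-322/-503 replicate 2 was smaller than the spread within the control group.

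**Figure D2:**
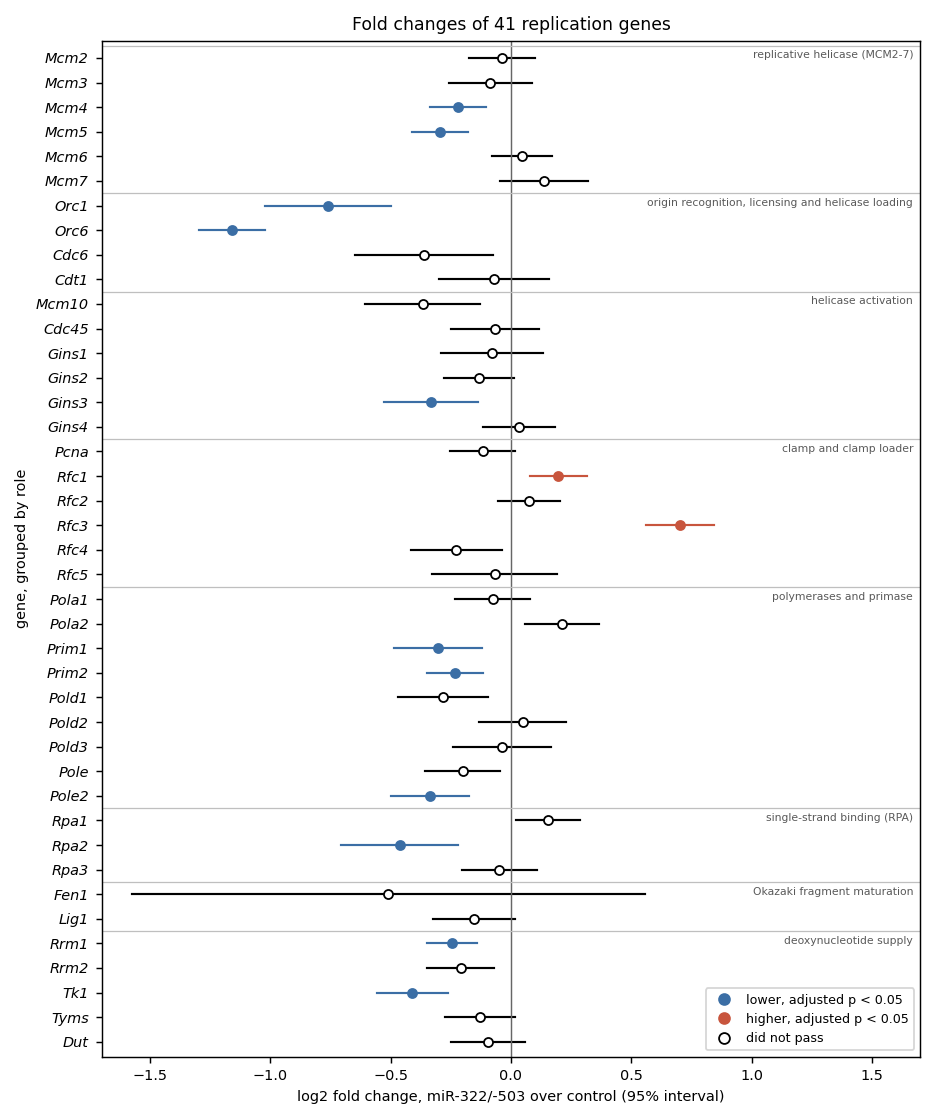
Log2 fold change (x axis) of each gene (y axis), with lines covering 1.96 standard errors on each side, and filled points for genes that passed the test. Blue points (11 lower) occur in 6 of the 8 roles shown and both red points (higher) belong to the clamp loader.

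The promoters of these genes were searched for letters typical of E2F sites. RefSeq windows of 250 bases before to 50 bases after the start site (GRCm38.p6) were given for 34 of the 41 genes. The letters TTTCGCGC, TTTGGCGC, TTTCCCGC, TTTGGCGG and TTCCCGCC, of which some can overlap, were searched on both strands. They were present in 18 windows (52.9%), against 7.08% of 11519 windows of all tested genes. The CCAAT letters, the motif of NF-Y, were in 61.8% against 38.8%, and both motifs were in 32.4% against 2.94%. The 18 genes with E2F-type letters had a median log2 fold change of -0.16, with 6 lower (33.3%) and 1 higher (5.56%). Over all 815 tested genes with such letters, the median was -0.05, with 20.6% lower and 11.9% higher. The 16 genes without the letters had a median of -0.12, with 3 lower (18.8%) and 1 higher (6.25%), against 18.0% lower and 15.5% higher over 10704 tested genes without them. Genes that fell were present in both sets.

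Of the 6 genes that passed the test in all 16 fits tried (Mcm5, Orc1, Orc6, Rfc3, Rrm1 and Tk1), 4 had such letters, and their windows are printed in the direction of transcription with the letters in capitals. Mcm5 lies at chr8:75109259-75109558 (plus strand), Orc1 at chr4:108579204-108579503 (plus strand), Rrm1 at chr7:102441445-102441744 (plus strand) and Rfc3 at chr5:151651159-151651458 (minus strand).
Mcm5 promoter: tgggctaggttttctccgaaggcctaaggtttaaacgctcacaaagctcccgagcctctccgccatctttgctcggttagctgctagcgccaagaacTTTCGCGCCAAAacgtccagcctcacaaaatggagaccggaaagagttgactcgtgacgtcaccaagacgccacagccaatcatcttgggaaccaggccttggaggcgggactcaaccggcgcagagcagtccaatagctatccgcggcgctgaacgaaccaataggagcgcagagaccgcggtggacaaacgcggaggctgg
Orc1 promoter: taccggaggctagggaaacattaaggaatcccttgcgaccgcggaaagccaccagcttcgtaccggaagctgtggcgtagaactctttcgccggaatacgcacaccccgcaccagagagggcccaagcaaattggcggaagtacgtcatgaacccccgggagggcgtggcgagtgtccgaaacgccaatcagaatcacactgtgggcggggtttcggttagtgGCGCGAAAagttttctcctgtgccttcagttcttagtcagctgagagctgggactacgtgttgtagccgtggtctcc
Rrm1 promoter: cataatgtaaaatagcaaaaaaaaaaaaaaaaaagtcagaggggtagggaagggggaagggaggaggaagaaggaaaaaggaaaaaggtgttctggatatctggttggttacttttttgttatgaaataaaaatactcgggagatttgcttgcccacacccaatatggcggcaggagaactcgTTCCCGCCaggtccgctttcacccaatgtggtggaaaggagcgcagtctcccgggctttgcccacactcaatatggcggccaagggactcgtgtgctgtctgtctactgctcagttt
Rfc3 promoter: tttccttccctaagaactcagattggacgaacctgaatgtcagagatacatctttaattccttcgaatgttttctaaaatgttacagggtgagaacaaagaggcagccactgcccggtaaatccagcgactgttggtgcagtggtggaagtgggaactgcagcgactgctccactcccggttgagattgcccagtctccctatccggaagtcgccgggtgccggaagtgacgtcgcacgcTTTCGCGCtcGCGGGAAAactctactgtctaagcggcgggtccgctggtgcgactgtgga
The windows of Mcm5 and Rfc3 each held 2 matches and those of Orc1 and Rrm1 held 1. The window of Rfc3, the gene with the largest rise, has the same kind of letters as those of Mcm5 and Orc1, which fell, and the windows of Orc6 and Tk1 had no such letters.

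The largest falls of the list were those of Orc6 and Orc1, of the origin recognition complex. Orc6 (chr8:85299632-85308278), which encodes the smallest ORC subunit, had 78.4, 75.01 and 68.2 CPM in the 3 control libraries and 33.0, 34.1 and 32.1 CPM in the miR-322/-503 libraries (replicates 1 to 3 in order, as for the other genes). The groups were far apart, with the highest miR-322/-503 library well below the lowest control library. Orc6 had a log2 fold change of -1.16 (SE 0.07, edgeR quasi-likelihood adjusted p = 2.75e-05), 2.23-fold lower. Orc1 (chr4:108579423-108614833), the ATPase subunit of ORC whose protein level is known to vary through the cell cycle, was at 6.90, 6.38 and 5.80 CPM and at 3.61, 4.17 and 3.48 CPM. Again no libraries overlapped. Its log2 fold change was -0.76 (SE 0.13, edgeR quasi-likelihood adjusted p = 0.00481). Orc6 shares 6.93% of its exon bases with Vps35 on the opposite strand. The estimated counts of Vps35, 42380, 38273 and 46844 in the control libraries and 29470, 22221 and 24566 in the miR-322/-503 libraries, were above those of Orc6 (6067, 6194 and 5757, and 3145, 2558 and 2411) and were also lower in every miR-322/-503 library, and their part in the Orc6 value was not tested. Orc1 shares 10.8% with Gm12743, and whether the counting used strand is not given in the sources used here.

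The licensing factors that bring the helicase to ORC did not pass. Cdc6, an ATPase that helps load MCM, was at 23.5, 26.4 and 21.9 CPM in the control and at 15.9, 22.7 and 17.3 CPM in the miR-322/-503 libraries. A single miR-322/-503 library, replicate 2, lay within the control range. Its log2 fold change was -0.36 with an interval of -0.65 to -0.08 (edgeR quasi-likelihood adjusted p = 0.109). Cdc6 passed in 2 of the 16 fits tried. These were the fit without miR-322/-503 replicate 2 (log2 fold change -0.53, edgeR quasi-likelihood adjusted p = 0.0203) and the fit with replicate number as a block (edgeR adjusted p = 0.0354). Cdt1, the other loading factor, had a log2 fold change of -0.07 with an interval of -0.30 to 0.16.

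The 6 subunits of the MCM2-7 helicase, which unwinds the DNA ahead of the fork, had log2 fold changes between -0.29 and 0.14. Of these, 2 of 6 passed the test, both as lower, while 28.8% of all tested genes passed and 15.5% did so as lower. Mcm5 (chr8:75109569-75128439) was at 62.5, 62.7 and 57.0 CPM in the control and at 49.9, 49.4 and 49.2 CPM with miR-322/-503, a log2 fold change of -0.29 (SE 0.06, edgeR quasi-likelihood adjusted p = 0.00911). The miR-322/-503 libraries lay within 1 CPM of each other and below every control library. Mcm4 was at 78.0, 80.2 and 85.5 CPM and at 66.8, 70.5 and 71.7 CPM, a log2 fold change of -0.22 (SE 0.06, edgeR quasi-likelihood adjusted p = 0.0279). The other 4 subunits had log2 fold changes between -0.09 (Mcm3) and 0.14 (Mcm7), with adjusted p-values of 0.326 to 0.748 and overlapping groups. Mcm2 was at -0.04 and Mcm6 at 0.05. On the TPM scale, which is per length and allows genes to be compared, the 6 subunits had control levels between 36.1 and 45.9 TPM, a 1.27-fold range, and miR-322/-503 levels between 31.0 (Mcm5) and 49.9 TPM (Mcm7), a 1.61-fold range. Mcm7 was at 51.0, 47.6 and 38.1 TPM in the control and at 58.1, 49.1 and 42.4 TPM with miR-322/-503, so its groups overlapped. It shares 7.25% of its exon bases with Ap4m1 on the opposite strand. A difference between the ranges was not tested.

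Among the factors that activate the helicase, Gins3 passed the test. Gins3, 1 of 4 subunits of the GINS complex, was at 20.5, 21.5 and 20.7 CPM in the control and at 16.1, 15.0 and 18.6 CPM with miR-322/-503, a log2 fold change of -0.33 (SE 0.10, edgeR quasi-likelihood adjusted p = 0.0421). The groups did not overlap, and the control values were much closer to each other than the miR-322/-503 values. The other GINS subunits had log2 fold changes of -0.08 (Gins1), -0.13 (Gins2) and 0.03 (Gins4) and did not pass. Gins2 shares 67.3% of its exon bases with Gse1 on the opposite strand, so its value is uncertain. Mcm10, which promotes helicase activation, was at 13.8, 15.8 and 14.2 CPM and at 11.8, 12.6 and 9.67 CPM, with no overlap. Its log2 fold change of -0.37 did not pass (edgeR quasi-likelihood adjusted p = 0.0596). Mcm10 passed in 2 of the 16 fits tried, with DESeq2 (adjusted p = 0.0470) and with replicate number as a block (edgeR adjusted p = 0.0384). Cdc45, the helicase cofactor, had a log2 fold change of -0.07 with an interval of -0.25 to 0.12.

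The clamp loader held both rises of the list. Rfc3 (chr5:151642756-151651242), a small subunit of replication factor C, was at 27.1, 30.5 and 29.6 CPM in the control and at 49.0, 46.0 and 47.0 CPM in the miR-322/-503 libraries. All 3 miR-322/-503 libraries were above all 3 control libraries. Its log2 fold change was 0.70 (SE 0.07, edgeR quasi-likelihood adjusted p = 0.000342), 1.63-fold higher. Rfc1, the large subunit, was at 68.5, 63.0 and 62.8 CPM and at 75.1, 76.4 and 71.2 CPM, a log2 fold change of 0.20 (SE 0.06, edgeR quasi-likelihood adjusted p = 0.0454). The other small subunits had log2 fold changes of 0.08 (Rfc2), -0.23 (Rfc4) and -0.07 (Rfc5) and did not pass. Pcna, the sliding clamp that the loader places on DNA, was at 167, 172 and 152 CPM and at 158, 144 and 150 CPM, and its log2 fold change of -0.12 had an interval of -0.25 to 0.02.

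The subunits of the clamp loader act as 1 pentamer. The level per length of Rfc3, the subunit with the largest change, was compared with those of Rfc4 and Pcna. Rfc4 had the lowest log2 fold change of the subunits and did not pass the test. The TPM ratio of Rfc3 to Rfc4 was 2.52 ± 0.0626 (SD, n = 3) in the control and 5.08 ± 0.154 in the miR-322/-503 libraries, and the groups did not overlap. The TPM ratio of Pcna to Rfc3 was 5.27 ± 0.281 and 2.93 ± 0.0410. Rfc4 shares 12.7% of its exon bases with Eif4a2 and Rfc5 shares 10.7% with Wsb2, both on the opposite strand.

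Of the polymerases and primase, both primase subunits fell. Prim1, the catalytic subunit that makes the RNA primer, was at 31.5, 28.5 and 30.1 CPM in the control and at 27.1, 23.2 and 22.7 CPM with miR-322/-503, a log2 fold change of -0.30 (SE 0.09, edgeR quasi-likelihood adjusted p = 0.0478). Prim2, its large partner, was at 43.1, 44.0 and 43.0 CPM and at 37.5, 37.6 and 35.8 CPM, a log2 fold change of -0.23 (SE 0.06, edgeR quasi-likelihood adjusted p = 0.0244). Neither subunit overlapped between the groups, and the TPM ratio of Prim2 to Prim1 was 1.65 ± 0.186 in the control and 1.72 ± 0.105 with miR-322/-503, with overlap.

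Neither polymerase alpha subunit, the partners of primase, passed the test. Pola1, the catalytic subunit, had a log2 fold change of -0.08 (interval -0.23 to 0.08). Pola2, the accessory subunit, was at 33.5, 39.8 and 36.4 CPM and at 42.1, 43.4 and 41.7 CPM, so its miR-322/-503 libraries were all above the control, and its log2 fold change of 0.21 did not pass (edgeR quasi-likelihood adjusted p = 0.0842). Pola2 passed in 3 of the 16 fits tried, among them without control replicate 2 (0.28, edgeR adjusted p = 0.0462) and with limma on log2(TPM + 1) (0.35, adjusted p = 0.0201). The TPM ratio of Pola2 to Pola1 was 2.67 ± 0.372 and 3.64 ± 0.233, without overlap.

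Pole2, a subunit of the leading-strand polymerase epsilon, was at 15.9, 15.8 and 15.1 CPM in the control and at 11.8, 13.1 and 12.2 CPM with miR-322/-503. The groups did not overlap, and the log2 fold change was -0.34 (SE 0.08, edgeR quasi-likelihood adjusted p = 0.0211). Pole, its catalytic subunit, was lower in all 3 miR-322/-503 libraries than in any control library, with a log2 fold change of -0.20, and did not pass. Pold1, the catalytic subunit of the lagging-strand polymerase delta, had the same pattern with -0.28 (edgeR quasi-likelihood adjusted p = 0.0634). The accessory subunits Pold2 (0.05) and Pold3 (-0.04) overlapped between the groups.

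The subunits of RPA, a heterotrimer that protects single-stranded DNA, had log2 fold changes between -0.46 and 0.15. Of these, 1 of 3 passed the test, as lower, while 28.8% of all tested genes passed and 15.5% did so as lower. Rpa2, the middle subunit and a target of checkpoint kinases, was at 26.1, 25.01 and 20.4 CPM in the control and at 19.2, 17.1 and 15.6 CPM with miR-322/-503. Control replicate 3 was close to miR-322/-503 replicate 1, though the groups did not overlap. Its log2 fold change was -0.46 (SE 0.12, edgeR quasi-likelihood adjusted p = 0.0289). Rpa1, the large subunit, was at 82.9, 81.8 and 76.2 CPM and at 95.3, 89.1 and 83.6 CPM, all 3 above the control, with a log2 fold change of 0.15 that did not pass. Rpa3, the small subunit, had -0.05. The TPM ratio of Rpa1 to Rpa2 was 1.09 ± 0.170 in the control and 1.86 ± 0.190 with miR-322/-503, without overlap.

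**Figure D3:**
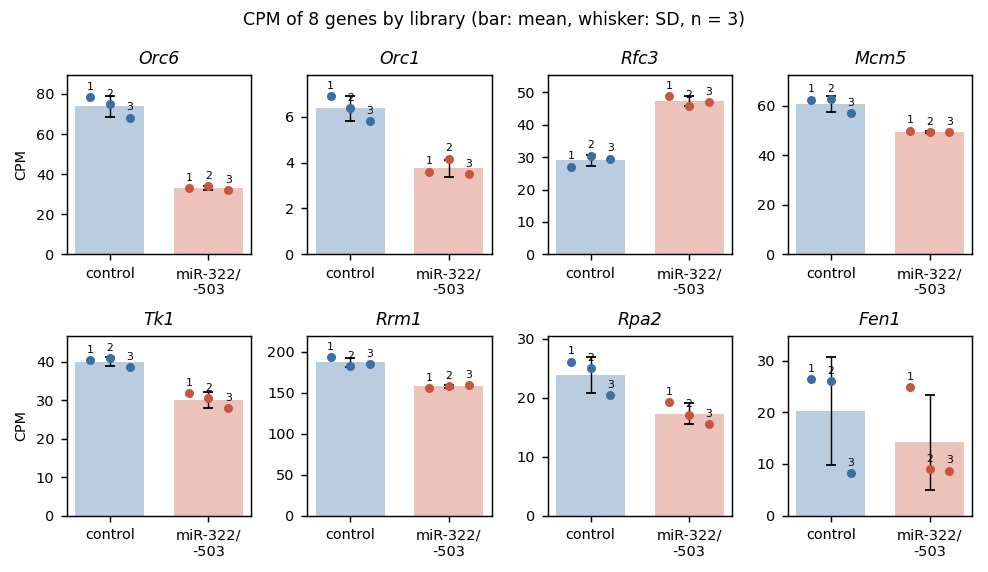
CPM (y axis, from 0) of 8 genes in the control and miR-322/-503 groups, with bars for the mean, whiskers for the SD and numbered points for the replicates. Orc6, Orc1, Mcm5, Tk1, Rrm1 and Rpa2 are lower and Rfc3 is higher in every miR-322/-503 library, while Fen1 is at about 8 to 9 CPM in 3 libraries and at about 25 to 26 CPM in the others, across both groups.

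Okazaki fragments are trimmed by the flap endonuclease FEN1 and sealed by DNA ligase 1. Fen1 (chr19:10199132-10204169) did not follow the groups. Control replicates 1 to 3 had 26.5, 26.0 and 8.16 CPM and the miR-322/-503 replicates had 24.8, 8.95 and 8.74 CPM, so 3 libraries were near 9 CPM and 3 were near 25 CPM, a ratio of means of 2.99. Its log2 fold change of -0.51 had an interval of -1.57 to 0.56, and leaving out 1 library at a time moved it between -1.19 and -0.25. In all, 13562 genes averaged 1 CPM or more in the 3 libraries where Fen1 was higher. Of these genes, 14, Fen1 included, had all of those 3 libraries at least 1.5-fold above the other 3. The split was chosen after the values of Fen1 were seen, and no count for other splits is given beside it. Among the 14 was Afmid, which shares 1.60% of the exon bases of Tk1 on the opposite strand, at 11.3, 13.7 and 3.43 CPM and at 10.8, 3.92 and 3.08 CPM. Another, Scamp4, had an overlapping gene, Gm49322, with the inverse pattern: Scamp4 was at 55.2, 46.1 and 10.04 CPM in the control, and Gm49322 at 2.71, 2.63 and 42.0 CPM. Afmid likewise overlaps Gm20708, which was at 0.633, 0.218 and 9.45 CPM in the control and at 0.430, 8.37 and 7.78 CPM in the miR-322/-503 libraries. Gm20634, also among the 14, was at 5.05, 4.84 and 0.497 CPM and at 6.51, 2.41 and 0.0266 CPM, and Hist2h3c1, which overlaps it, at 2.55, 2.43 and 8.73 CPM and at 1.88, 7.23 and 9.23 CPM. Fen1 shares 78.8% of its exon bases with Gm10143 and 5.37% with Tmem258, both on the opposite strand. The counts of Gm10143 were 122, 186 and 174 in control libraries and 36, 144 and 124 in miR-322/-503 libraries, and Tmem258 was at 96.6, 113 and 98.8 CPM and at 80.8, 95.7 and 91.0 CPM, so neither was the inverse of Fen1. What sets the split was not tested. Lig1, the ligase, was at 40.9, 40.7 and 35.7 CPM and at 32.6, 37.6 and 35.1 CPM, a log2 fold change of -0.15 with an interval of -0.32 to 0.02.

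All 5 nucleotide supply genes were below 0, as were 50.7% of all tested genes, and 2 passed as lower, against a background of 15.5%. Tk1, the thymidine kinase of the salvage pathway, was at 40.5, 40.9 and 38.6 CPM in the control and at 31.8, 30.6 and 27.9 CPM with miR-322/-503. The groups were separate, with a log2 fold change of -0.41 (SE 0.08, edgeR quasi-likelihood adjusted p = 0.00566). Rrm1, the large subunit of ribonucleotide reductase, was at 194, 183 and 185 CPM and at 156, 158 and 159 CPM, a log2 fold change of -0.25 (SE 0.05, edgeR quasi-likelihood adjusted p = 0.0120). Rrm2, the small subunit that limits the enzyme in S phase, was at 229, 214 and 210 CPM and at 180, 203 and 182 CPM. Its groups did not overlap either, but the log2 fold change of -0.21 did not pass (edgeR quasi-likelihood adjusted p = 0.0650). It passed in 1 of the 16 fits tried, the one without miR-322/-503 replicate 2 (-0.27, edgeR adjusted p = 0.0385). The TPM ratio of Rrm2 to Rrm1 was 2.15 ± 0.0587 in the control and 2.22 ± 0.142 with miR-322/-503, with overlap. Tyms, thymidylate synthase, had -0.13 and Dut, which removes dUTP, had -0.10, both without overlap and without passing.

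On the TPM scale, Pcna (207 ± 13.1 TPM, SD, n = 3) and Rrm2 (195 ± 11.1 TPM) had the highest control levels of the list, and the difference between them was within their spread. Orc6 followed at 124 ± 11.6 TPM and Rrm1 at 90.6 ± 3.16 TPM. The lowest were Cdc6 at 10.3 ± 1.12, Cdt1 at 9.09 ± 0.441 and Orc1 at 4.91 ± 1.04 TPM. In the miR-322/-503 libraries, Orc6 was at 55.0 ± 3.30 TPM, below Rrm1 (75.1 ± 2.46) and Rfc3 (64.3 ± 4.63), whose control level was 39.3 ± 2.02 TPM. The TPM ratio of Orc6 to Orc1 was 25.8 ± 3.11 in the control and 19.4 ± 1.83 with miR-322/-503, without overlap.

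The position of the genes was compared with their fold changes, because the median fold change was not 0 along some stretches of chromosomes. For each gene, the median log2 fold change of the 25 tested genes on each side was taken. These neighbours had a median of -0.78 around Orc6 and of 0.73 around Rfc3, which lies near the end of chromosome 5 with 25 tested neighbours in all. The medians were -0.35 around Gins3, -0.31 around Rpa2, -0.30 around Orc1 and 0.33 around Rfc1. These 6 genes had neighbours with a median of at least 0.25 in either direction, a limit chosen after the values were seen, and all 6 passed the test. Among all tested genes with such neighbours, 38.2% passed. The next largest neighbour medians of the list were those of Mcm7 (0.21) and Mcm3 (0.18), which did not pass, so the count depends on the limit. Of the other 35 genes of the list, 7 passed, all lower (Mcm4, Mcm5, Prim1, Prim2, Pole2, Rrm1 and Tk1), where 27.6% of all tested genes in such places passed and 14.0% did so as lower.

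Both rises of the list were in stretches where the median of the neighbours was above 0. The 4 falls of Orc6, Orc1, Gins3 and Rpa2 were in stretches where it was below 0. Rfc3 differed from its neighbours by -0.03 and Gins3 by 0.02. Orc6 was lower than its neighbours by -0.38 and Orc1 by -0.46. After subtraction of the neighbour median from each gene, 35 of the 41 genes were below 0, as were 49.9% of all tested genes, and the median of the list was -0.16. The part of the stretches in the values of these genes was not tested.

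**Figure D4:**
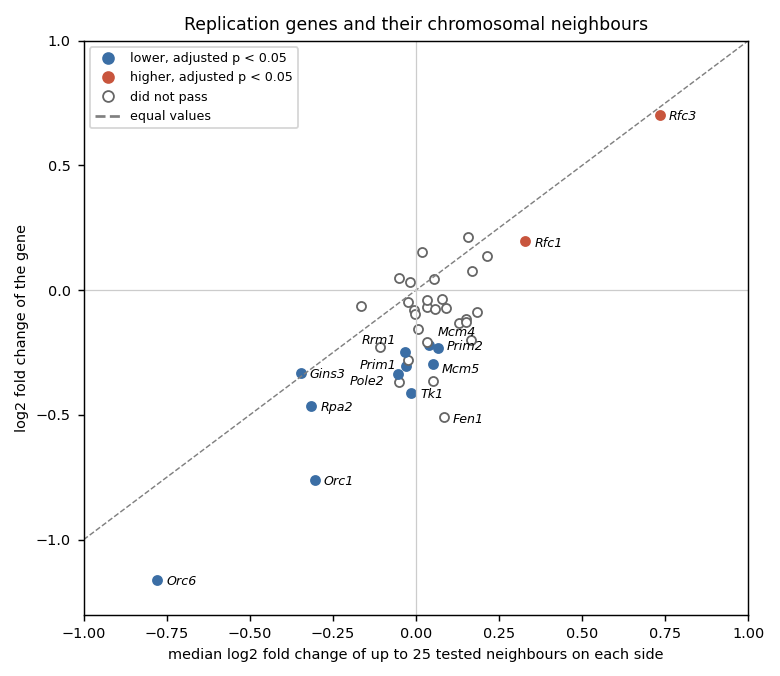
Log2 fold change of each of the 41 genes (y axis) against the median log2 fold change of its tested neighbours on the chromosome (x axis), with a dashed line at equal values. Orc6 and Rfc3 lie at the ends of the x axis, at -0.78 and 0.73, and 35 points lie below the line.

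Further lists of replication genes, also written with earlier results of these data known, held more falls than rises. Of 18 initiation and firing factors, 7 were lower (38.9%, against 15.5% of all tested genes) and the other 11 did not pass, with a median log2 fold change of -0.22. The largest fall was that of Dbf4, the activating subunit of the CDC7 kinase, at 44.7, 45.2 and 46.0 CPM in the control and 15.6, 19.2 and 17.1 CPM with miR-322/-503 (log2 fold change -1.39, edgeR quasi-likelihood adjusted p = 4.12e-05). Recql4 (-0.70), Mtbp (-0.37) and Ticrr (-0.35), which take part in firing, followed. The other ORC subunits, Orc2 (0.21), Orc3 (-0.00458), Orc4 (0.25) and Orc5 (0.06), did not pass, and were named for comparison with Orc1 and Orc6 after their values were seen. Of 28 fork, clamp and maturation factors, 10 were lower (35.7%, background 15.5%) and 18 did not pass, with a median of -0.20. Asf1b, a histone chaperone, had -1.41, Rnaseh2a, the catalytic subunit of RNase H2, -0.80, Top2a, a topoisomerase, -0.58, and Clspn, a checkpoint mediator at the fork, -0.54. The neighbours of Asf1b and Rnaseh2a on chromosome 8 had medians of -0.84 and -0.86, and those of Dbf4 -0.39.

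Of 28 further nucleotide supply genes, 10 were lower (35.7%, background 15.5%), 1 was higher (3.57%, background 13.2%) and 17 did not pass, with a median of -0.15. Impdh2, of guanine nucleotide synthesis, was at 84.9, 84.2 and 81.6 CPM and at 48.3, 51.1 and 48.8 CPM (log2 fold change -0.76, edgeR quasi-likelihood adjusted p = 5.13e-05). Samhd1, which degrades dNTPs, also fell (-0.59), as did Cad (-0.42) and Ctps (-0.42), of pyrimidine synthesis. Dck, the deoxycytidine salvage kinase, rose (0.34). Of 17 tested genes of the S-phase checkpoint, 5 were lower (29.4%, background 15.5%) and 2 higher (11.8%, background 13.2%), with a median of -0.19. Chek1, the main checkpoint kinase of S phase, was at 9.50, 10.1 and 9.18 CPM and at 6.06, 6.08 and 6.16 CPM (-0.65), Fanci, of crosslink repair, had -0.47, Gadd45a, a stress response gene, had 0.38, and Rad9a, of the checkpoint clamp, had -0.37.

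Of 26 genes of the E2F, pocket protein and G1/S list, 4 were higher (15.4%, background 13.2%), 6 were lower (23.1%, background 15.5%) and 16 did not pass, with a median of -0.03. Ccnd3 (1.09), a cyclin linked to muscle differentiation, and Cdk6 (0.66) rose, and Ccnd1 (-0.64), the cyclin of early G1 phase, fell. Cdkn1c, a CDK inhibitor, was at 2.65, 3.73 and 3.21 CPM in the control and had 5, 0 and 4 estimated counts in the miR-322/-503 libraries, too few for a fold change to be given. Of 16 markers of the S to M phases, 15 were lower (93.8%, background 15.5%), with a median of -0.68. Cdc20 (-1.33), an activator of anaphase, Ccnb2 (-1.22), a mitotic cyclin, Birc5 (-0.79), survivin, and Bub1b (-0.78), of the spindle checkpoint, had the largest falls, and Mki67, a marker of cycling cells, was at 319, 347 and 362 CPM and at 193, 204 and 213 CPM (-0.75). The summed level of these markers was 1137 to 1160 CPM in the control and 698 to 705 CPM with miR-322/-503. The part of this fall in the values of the replication genes was not tested.

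**Figure D5:**
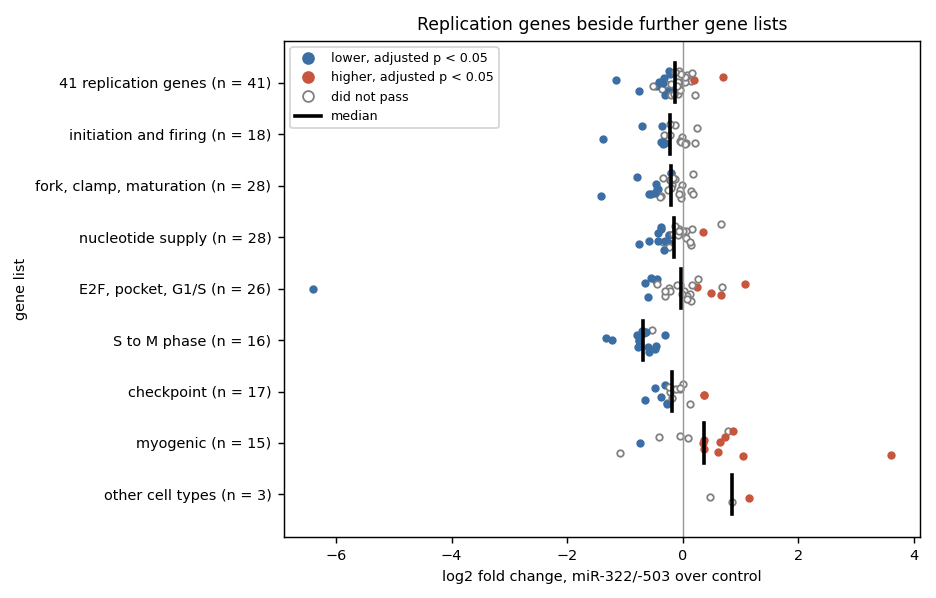
Log2 fold change (x axis) of each tested gene in the replication list and in 8 further lists (y axis), with filled points for genes that passed the test and a black bar at each median. The S to M phase markers have a median of -0.68 and the replication genes of -0.13, and Cdkn1c, near 0 counts in the miR-322/-503 group, lies far left, where the position depends on how low counts are treated.

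The cells carried the markers of their type. Of 15 myogenic and myotube genes, 9 were higher (60%, background 13.2%), 1 was lower (6.67%, background 15.5%) and 5 did not pass, with a summed level of 4478 to 4858 CPM in the control and 5919 to 6228 CPM with miR-322/-503. Mef2c (3.61), Tnnt3 (1.04) and Ckm (0.87) rose, and Myog, a driver of differentiation, fell (-0.74). Of the 5 that did not pass, Mymk (-0.41) and Myh8 (-1.09) were lower in every miR-322/-503 library than in any control library. The others were Myh3 (-0.05), Acta1 (0.09) and Myf6 (0.78), the last below 1 CPM. Des (mean 1149 CPM in the control and 1800 CPM with miR-322/-503) and Chrna1 (807 and 1228 CPM) weighed heavily in the summed level. Of 12 markers of endothelial, leukocyte, adipocyte and neural cells, 3 had enough counts to be tested, with a summed level of 51.1 to 53.1 CPM in the control and 105 to 118 CPM with miR-322/-503. Nearly all of it was Tubb3, a neuronal tubulin, which was higher (1.14), while Adgre1, Cd3e, Sox10 and Adipoq had 0 counts in all 6 libraries. The part of these markers in the values of the replication genes was not tested.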

How the data were processed

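RNA-seq was analysed for 6 libraries, 3 per group. Trimming by the authors used Trim Galore, alignment to GRCm38 used HISAT2 and gene quantification used StringTie, with versions and gene annotation not given in the sources used here. The authors deposited a table of whole-number estimated counts per gene without normalization, and per-library tables with TPM and coverage (signal per base) per gene. The deposited totals were 73532084 to 92157388 counts. About 75 covered bases corresponded to 1 count and low genes peaked at 300 covered bases, so 1 read pair entered as about 4 counts, giving 18383021 to 23039347 read pairs. This overstates counting precision, while the spread was estimated between libraries.

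Counts were tested with edgeR 4.0.16 (filterByExpr, TMM with factors of 0.977 to 1.03, glmQLFit, glmQLFTest, Benjamini-Hochberg over 18140 genes) in R 4.3.3, with miR-322/-503 over control and no covariates. The study's own methods used DESeq2, which was run as an alternative (version 1.42.0), as were other scalings and filters, counts divided by 4, a replicate block, limma 3.58.1 on log2(TPM + 1) and log2(TPM + 0.1), dropping single libraries, and dropping members on chromosomes 4, 8 and 9. The comparison with neighbours as a subtraction was chosen after seeing the data. A standard error was obtained by dividing the log2 fold change by the root of its F statistic, and intervals are 1.96 standard errors on each side.

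The members and all gene lists were chosen with earlier results of these data known. All 41 members are named. Full statistics go to the members past the test with the 2 largest rises and 2 largest falls in each role. In each further list, up to 4 genes past the test are named by size of change, with a mean of at least 1 CPM. Mki67, Dck, the ORC subunits, Des, Chrna1 and the myogenic genes that did not pass were named after their values were seen. The full statistics of Prim2 were also chosen after its values were seen. The symbol Hrob was not in the table. Of the 55421 gene IDs, 55240 matched GENCODE M21, which gave the exon overlaps and 3'UTRs of at least 50 bases. Where a 3'UTR held several matches to the same seed, the last was kept and any other is not reported here. In 27 of 34 promoter windows, the bases after the RefSeq start site were found in a GENCODE transcript of the gene. On simulated counts of 17638 genes for this comparison, edgeR recovered 95 of 100 genes set to a log2 difference of 2 and 74 of 100 set to 1, with 8 unchanged genes called. The 200 changed genes all lay above 1 CPM, and 5218 genes passed in the data. Changes below 1, as in most members that passed, were not simulated, so the recovery does not apply to them.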

Additional observations from a re-analysis of the deposited data

How the results depend on the processing

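The number of lower members was 11 and stayed between 8 and 12 under DESeq2, other scalings, other filters, counts divided by 4, log2(TPM + 0.1) and the replicate block. It was 7 with limma on log2(TPM + 1), 6 of 33 without members on chromosomes 4, 8 and 9 (where the count below a log2 fold change of -1 was 0) and 5 to 8 when 1 library was left out. The number of higher members was 2, and 1 with DESeq2 and with no filter on low counts, and 1 to 2 with 1 library left out. The median of the members stayed between -0.17 and -0.10 under all of these and was -0.16 after subtraction of neighbours. Of the 13 members, 6 passed in all 16 fits (Mcm5, Orc1, Orc6, Rfc3, Rrm1 and Tk1). Of the other 7, Mcm4 and Gins3 passed in 8, Rfc1 in 7, Prim1 in 6, Prim2 in 9, Pole2 in 11 and Rpa2 in 12.

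Values near 0 changed sign and never passed. With limma, Mcm6 was -0.0587 (pseudocount 1) and -0.0599 (pseudocount 0.1), and Rfc2 was -0.00260 and -0.00330. With 1 library left out, Mcm6 ranged from -0.00259 to 0.0706, Cdt1 from -0.158 to 0.00148, Rfc5 from -0.168 to 0.0565 and Pold3 from -0.112 to 0.0655. The cause was not tested. In the further lists, the replicate block gave 1 higher gene in the fork list and 2 in the nucleotide supply list, DESeq2 gave 2 in the latter, and DESeq2 gave 3 lower myogenic genes.

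Libraries with the same replicate number were not treated as pairs (correlations of deviations of 0.131, 0.0687 and 0.0451 for the 3 numbers), and with the replicate block 14 members passed, 12 of them shared with the fit without it. Gins3 missed the threshold with the block (adjusted p = 0.0521), and Cdc6 (0.0354) and Mcm10 (0.0384) passed. The depth was enough to count every member in every library, and with 3 libraries per group the smallest change that passed among the members was 0.20 on the log2 scale.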

Other observations

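The uneven pattern of Fen1 was also present in genes outside replication, which were chosen after their values were seen. Gemin7, of the SMN complex, was at 14.3, 12.6 and 2.002 CPM in control replicates 1 to 3 and at 13.9, 1.13 and 2.71 CPM in the miR-322/-503 replicates. Smug1, a uracil DNA glycosylase, was at 30.8, 30.3 and 15.9 CPM and at 31.6, 18.3 and 16.7 CPM. Ppard, a nuclear receptor, was at 51.8, 58.3 and 28.2 CPM and at 46.9, 25.4 and 25.2 CPM. In each of them, control replicate 3 and miR-322/-503 replicates 2 and 3 were the low libraries.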
